A study of Mus musculus with 17 samples.

Results

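Cxcl9 and Cxcl10 high macrophages are tumour cells with complement C1q and Csf1r RNA that also carry at least 5 UMIs of Cxcl9 plus Cxcl10. A UMI is a molecular tag that marks 1 captured RNA molecule. A member barcode had 500 genes or more, no more than 10% of its UMIs from mitochondrial genes, at least 1 UMI of Csf1r, the receptor of the macrophage growth factor CSF1, and at least 20 UMIs of C1qa, C1qb and C1qc together. They held no UMI of Cd3d, Cd3e, Cd3g or Cd79a, under 4 UMIs of Marco, Lyve1 and Fcna together, and under 3 UMIs of Mki67 and Top2a together. The rule found 659 members among 18546 barcodes that passed the 500-gene and mitochondrial limits in 5 libraries. Another 2224 cells met every part but had fewer than 5 UMIs of Cxcl9 plus Cxcl10, and these are called C1q macrophages under the cutoff. A further 322 cells met the Csf1r, C1q, lymphocyte and cell cycle parts with 4 or more UMIs of Marco, Lyve1 and Fcna, and these are called resident-like macrophages.

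The 5 libraries come from leukocytes sorted by CD45 from mouse pancreatic tumours, 3 weeks after the tumours were implanted in the pancreas, with 1 library for each genotype. The genotypes are flfl_CD4Cre (PDL1 floxed/floxed-CD4Cre), flWT_CD4Cre (PDL1 floxed/WT-CD4Cre), flfl (PDL1 floxed/floxed without Cre), WT, and CD4Cre (Cre without a floxed allele), all untreated. Cre under the Cd4 promoter is active in the T cell lineage, and the floxed gene is Cd274, which encodes PD-L1, so the deletion is aimed at T cells and not at macrophages. The labels call the cells tumour-infiltrating T cells, which the macrophage genes of these members contradict, and nothing states how many animals each library pools. With 1 library for each genotype there is no replicate of a genotype, so a difference between genotypes cannot be told apart from a difference between animals or libraries. The file names of the flWT_CD4Cre and WT libraries do not match the labels, which were taken as right here.

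CXCL9 and CXCL10 are small secreted proteins that draw activated T cells and natural killer cells through their shared receptor CXCR3. Macrophages make both after interferon gamma, which acts through the receptor chains IFNGR1 and IFNGR2, and the kinases JAK1 and JAK2, and Cxcl10 also answers to type I interferons. The same signals raise guanylate-binding proteins and immunity-related GTPases, which attack the vacuoles of microbes inside cells, and the machinery that loads peptides on MHC class I.

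The promoters of Cxcl9, Cxcl10 and 3 interferon-inducible genes are shown because the members were chosen on the first pair, and because Gbp2, Gbp5 and Ifit3 stand for the gene groups described further on. Each run holds the 250 bases before the start site in RefSeq (GRCm38.p6), written along the gene's own strand. Capitals mark matches to TTCNNNGAA, the letters of a gamma-activated site (GAS), or GAAANNGAAA, the core of an interferon-stimulated response element (ISRE), both searched on both strands. Cxcl9 lies at chr5:92328080-92328329 (minus strand) with no match, Cxcl10 at chr5:92348890-92349139 (minus) with an ISRE beginning 213 bases before the start, Gbp2 at chr3:142620413-142620662 (plus) with an ISRE at 59 bases, Gbp5 at chr3:142496684-142496933 (plus) with GAS letters at 245 and 52 bases and an ISRE at 165 bases, and Ifit3 at chr19:34583279-34583528 (plus) with ISRE letters at 156 and 122 bases.
Cxcl9: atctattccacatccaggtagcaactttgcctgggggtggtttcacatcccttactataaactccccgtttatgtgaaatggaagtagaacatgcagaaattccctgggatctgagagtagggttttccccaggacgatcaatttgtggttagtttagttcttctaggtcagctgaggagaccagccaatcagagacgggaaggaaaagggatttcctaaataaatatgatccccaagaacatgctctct
Cxcl10: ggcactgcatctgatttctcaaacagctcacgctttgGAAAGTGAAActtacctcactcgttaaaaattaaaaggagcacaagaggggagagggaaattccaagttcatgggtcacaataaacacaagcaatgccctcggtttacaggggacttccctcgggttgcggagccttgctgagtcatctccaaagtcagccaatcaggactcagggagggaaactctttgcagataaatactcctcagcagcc
Gbp2: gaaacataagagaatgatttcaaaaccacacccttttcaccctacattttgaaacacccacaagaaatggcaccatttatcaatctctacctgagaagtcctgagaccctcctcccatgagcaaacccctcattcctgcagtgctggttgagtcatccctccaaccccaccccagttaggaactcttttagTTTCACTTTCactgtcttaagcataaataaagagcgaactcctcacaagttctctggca
Gbp5: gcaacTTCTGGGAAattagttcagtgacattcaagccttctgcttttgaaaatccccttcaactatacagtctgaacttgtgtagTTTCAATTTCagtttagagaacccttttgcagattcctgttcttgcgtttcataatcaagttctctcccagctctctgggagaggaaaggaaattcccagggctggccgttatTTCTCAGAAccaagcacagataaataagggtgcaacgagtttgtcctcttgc
Ifit3: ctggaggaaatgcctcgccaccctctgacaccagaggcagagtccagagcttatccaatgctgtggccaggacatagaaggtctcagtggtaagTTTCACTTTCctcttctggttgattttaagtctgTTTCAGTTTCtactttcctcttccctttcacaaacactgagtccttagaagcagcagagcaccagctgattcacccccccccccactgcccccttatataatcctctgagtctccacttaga

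Libraries fell into 2 sets. The flfl_CD4Cre, flWT_CD4Cre and CD4Cre matrices list 31053 features and the flfl and WT matrices 28692, and 28208 genes common to both were used. The same split ran through the values, so every comparison between classes was made within libraries. Barcodes were shared between libraries of the first set: 1856 between flfl_CD4Cre and flWT_CD4Cre, 1414 between flfl_CD4Cre and CD4Cre, and 1710 between flWT_CD4Cre and CD4Cre, against 12 between flfl and WT and at most 1 for the other pairs. Of the members, 71 in flfl_CD4Cre, 12 in flWT_CD4Cre, 1 in flfl, 0 in WT and 36 in CD4Cre had a barcode that also occurred elsewhere, none was a member in 2 libraries, and 1, in CD4Cre, had more UMIs elsewhere. In the libraries with 12 or more such members the other barcode held a median of 0.0273 (flfl_CD4Cre), 0.0180 (flWT_CD4Cre) and 0.0333 (CD4Cre) of the member's own UMIs. Results without these cells are given where that refit was made and they differ. Cd274 stood at 60.3, 36.1, 12.3, 12.6 and 56.4 CPM in T cells of flfl_CD4Cre, flWT_CD4Cre, flfl, WT and CD4Cre, where CPM is UMIs out of each 1000000 of the class. The floxed exons are not given in the sources used here, and tags that lie outside them would not check the deletion. Members held a median of 17709, 18467, 12715, 12702 and 13599 UMIs in flfl_CD4Cre, flWT_CD4Cre, flfl, WT and CD4Cre, against 15054, 16021, 11195, 11047 and 13114 in cells under the cutoff of the same libraries.

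The members carried macrophage RNA, with low sums for most markers of other lineages and more neutrophil marker RNA in flfl and WT. All 12 macrophage identity genes were detected, with a summed level of 16578 to 26022 CPM over the 5 libraries, against 14367 to 26755 CPM in cells under the cutoff. The 12 T cell and NK cell markers summed to 3.93 to 115 CPM in members and 4.30 to 114 CPM in cells under the cutoff, the 8 dendritic cell markers to 22.05 to 54.8 CPM in members and 12.5 to 67.8 CPM under the cutoff, and the 7 B and plasma cell markers to 17.8 to 357 CPM in members and 46.5 to 384 CPM under the cutoff. Neutrophil markers summed to 98.1 to 1437 CPM in members and 287 to 1458 CPM in cells under the cutoff, and the flfl and WT libraries were the highest in both. The neutrophil marker S100a8 was found in 98.5% of WT and 84.2% of flfl members, against 18.1 to 27.9% in the other libraries. Under the cutoff it was found in 94.9% of WT and 84.8% of flfl cells. Epithelial and fibroblast markers summed to 13.7 to 129.96 CPM in members and 16.5 to 294 CPM in cells under the cutoff. Erythrocyte and platelet markers reached 5186 CPM in WT members, where 1 cell held 2269 of 2298 UMIs of the haemoglobin gene Hbb-bs, against at most 6.21 CPM in members of the other libraries. Every marker of these 6 lists had at least 1 UMI in the members of at least 1 library.

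The share of C1q macrophages that were members was higher in flfl_CD4Cre, flWT_CD4Cre and CD4Cre than in flfl and WT, which is also the split of the library sets, so set and genotype cannot be told apart there. It was 31.9% in flfl_CD4Cre (259 of 812 cells, exact 95% binomial interval 28.7 to 35.2), 37.6% in flWT_CD4Cre (166 of 442, 33.0 to 42.3), 11.8% in flfl (57 of 484, 9.04 to 14.99), 8.56% in WT (66 of 771, 6.68 to 10.8) and 29.7% in CD4Cre (111 of 374, 25.1 to 34.6). The intervals cover counting error only. Within the first set the interval of flfl_CD4Cre overlapped those of flWT_CD4Cre and CD4Cre, and within the other set those of flfl and WT overlapped. With each cell thinned to 4000 UMIs before the rule was applied, the shares were 21.1, 26.9, 6.07, 3.47 and 21.6% in the same order, after 1046, 1371, 0, 0 and 1583 shallower cells were left out. Thinning also moved cells into the C1q macrophages of flfl and WT, which held 659 and 952 cells after thinning against 484 and 771 before it. Removing cells with a shared barcode gave 29.3, 37.7, 11.6, 8.62 and 28.2%. Over all barcodes that passed the quality limits, members were 6.55, 4.38, 1.99, 2.30 and 2.19%.

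**Figure D1:**
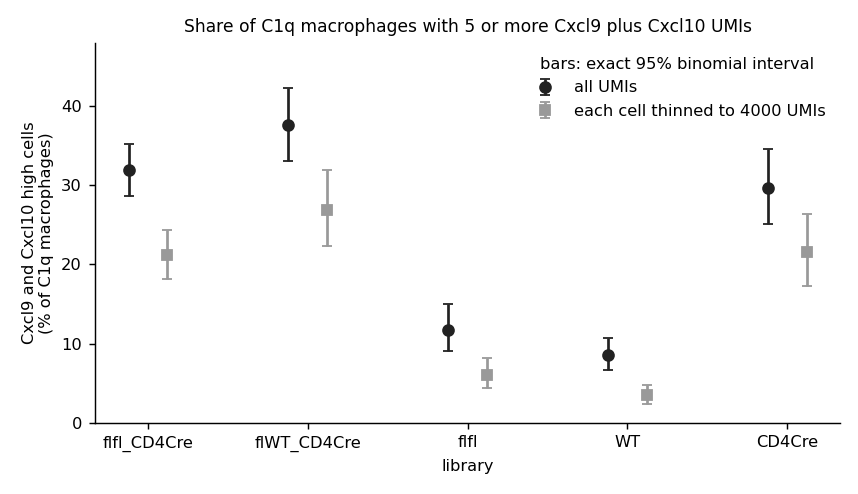
Share of members among C1q macrophages in each library, with every UMI (dark circles) and with each cell thinned to 4000 UMIs (grey squares); bars are exact 95% binomial intervals. The 3 libraries of one set lie between 29.7 and 37.6%, and flfl and WT lie at 11.8 and 8.56%.

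The values of Cxcl9 and Cxcl10 chose the members and are given as a description. The median member held 15 UMIs of Cxcl9 and 1 of Cxcl10, and the highest single cell values were 826 for Cxcl9 and 336 for Cxcl10. Cxcl9 stood at 2871, 1945, 884, 940.0 and 2018 CPM in members of flfl_CD4Cre, flWT_CD4Cre, flfl, WT and CD4Cre, against 21.3, 24.3, 21.3, 18.99 and 27.4 CPM in cells under the cutoff. Cxcl10 stood at 1079, 1037, 374, 273 and 783 CPM in members, against 10.4, 12.6, 17.4, 5.06 and 15.1 CPM under the cutoff. Members were 1.99 to 6.55% of the cells of a library and held 26.3 to 54.6% of its Cxcl9 UMIs and 14.9 to 42.4% of its Cxcl10 UMIs, so other cells held the rest. At the threshold, the 39 members with exactly 5 UMIs and the 42 cells with exactly 4 had a median of 12734 and 14866 UMIs in all.

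Free RNA reaches every droplet, so the same count was made in B cells as a background class. A UMI of Cxcl9 or Cxcl10 occurred in 3.16 to 14.1% of B cells, whose median depth was 4796 to 8492 UMIs, and 5 or more occurred in 0 to 0.142% of them. T cells, with a median depth of 5661 to 7340 UMIs, held a UMI of the pair in 3.55 to 17.4%. They reached 5 or more in 3.57% (flfl_CD4Cre), 1.45% (flWT_CD4Cre), 0.514% (flfl), 0% (WT) and 0% (CD4Cre). Among cells under the cutoff 16.7 to 35.9% held a UMI of the pair. The receptor gene Cxcr3 stood at 0 to 12.01 CPM in members and 34.3 to 114 CPM in T cells of the same libraries. Ifng, the interferon gamma gene, had 1 UMI over all 659 members and stood at 51.4 to 262 CPM in T cells.

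Most members were dominated by one of the chemokines. In 456 members Cxcl9 had more UMIs, in 195 Cxcl10 had more, and 8 had equal numbers. No Cxcl9 UMI was found in 92 members and no Cxcl10 UMI in 296, while 136 members held at least 5 UMIs of each. Cxcl9 led in 72.2, 61.4, 68.4, 78.8 and 68.5% of members in flfl_CD4Cre, flWT_CD4Cre, flfl, WT and CD4Cre, so it led in the larger part of each library. The rank correlation of the 2 genes over members was -0.07, -0.42, -0.62, -0.23 and -0.32 in the same order, over 259, 166, 57, 66 and 111 cells. Cells of a library share its depth and its free RNA, and a threshold on the sum of 2 counts itself favours a negative value.

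**Figure D2:**
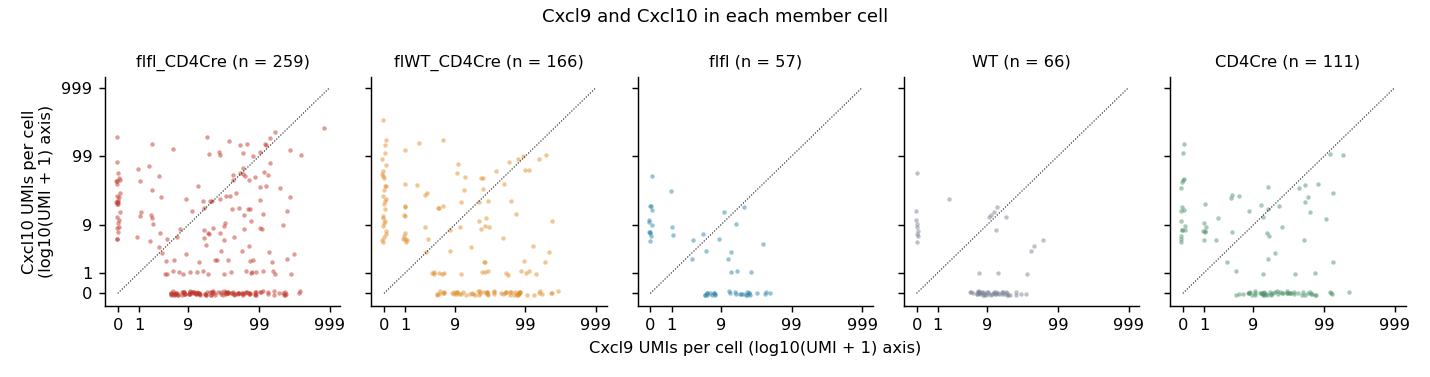
UMIs of Cxcl9 (horizontal) and Cxcl10 (vertical) in each member cell, 1 panel for each library, both on a log10(UMI + 1) axis with a small random offset for visibility; the dotted line marks equal counts. Many of the 659 cells lie on an axis, 296 with no Cxcl10 and 92 with no Cxcl9.

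Members were compared with C1q macrophages under the cutoff of the same library, on UMI sums of each class and library, with the library as a block in edgeR's quasi-likelihood test. The 15 genes of the rule were left out. The classes were split on Cxcl9 plus Cxcl10, which answer to interferons, so other interferon-inducible genes are not independent of the split. The adjusted p-values do not allow for that. The part of this choice of members in the changes was not tested. Genes with close copies (Gbp2 and Gbp2b, Ifit3 and Ifit3b, Lyz1 and Lyz2, the H2 genes) can share reads, so the split between such copies is less certain. Of 10180 genes tested, 356 were higher in members and 187 were lower at an adjusted p under 0.05, which is 3.5% and 1.84% of the genes tested, and 77 genes (0.756%) did not overlap between the classes over the 5 libraries. DESeq2 gave 318 higher and 99 lower. Without CD4Cre the counts were 219 and 98, and without flfl_CD4Cre 240 and 101, while removing cells with a shared barcode gave 369 and 191. Within the set of flfl_CD4Cre, flWT_CD4Cre and CD4Cre 432 genes were higher and 164 lower, and within flfl and WT 135 and 56.

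The guanylate-binding proteins and immunity-related GTPases were the group with the highest median. Of the 17 genes listed 16 were tested, 14 rose and none fell, with a median log2 change of 1.51 against -0.02 over all genes tested. Gbp2, a marker of these cells whose protein coats and breaks the vacuoles of microbes, stood at 855, 330.1, 256, 212 and 513 CPM in members of flfl_CD4Cre, flWT_CD4Cre, flfl, WT and CD4Cre, against 155, 88.2, 67.5, 47.8 and 90.7 CPM in cells under the cutoff. The lowest members lay above the highest cells under the cutoff, and the change was 2.24 log2 (SE 0.10, adjusted p = 1.77e-07). Gbp5, which helps inflammasomes form, averaged 142 ± 117 CPM in members and 22.8 ± 13.6 CPM in cells under the cutoff (SD, n = 5 libraries each, log2 2.61, SE 0.15, adjusted p = 2.03e-06), higher in 5 of 5 libraries although the classes overlapped with flfl and WT low in both. Iigp1, a GTPase that acts on Toxoplasma vacuoles, averaged 326 ± 187 CPM in members and 53.6 ± 38.6 CPM in cells under the cutoff (log2 2.76, SE 0.20, adjusted p = 0.00103). Gbp4 averaged 115 ± 66.6 CPM in members and 36.4 ± 16.9 CPM in cells under the cutoff (log2 1.68, SE 0.10, adjusted p = 1.85e-07). Gbp2b averaged 39.7 ± 16.1 CPM in members and 10.8 ± 6.47 CPM in cells under the cutoff (log2 2.002, SE 0.15, adjusted p = 1.30e-06). Igtp averaged 94.1 ± 23.6 CPM in members and 33.7 ± 10.8 CPM in cells under the cutoff (log2 1.51, SE 0.11, adjusted p = 1.83e-06). These 4 genes were higher in members in 5 of 5 libraries, and Iigp1 and Igtp did not overlap between the classes. Summed over the 17 genes the level was 3308, 1766, 1344, 1221 and 2573 CPM in members, against 992, 694, 454, 409 and 789.5 CPM under the cutoff.

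The level of this group rose over the Cxcl9 plus Cxcl10 count, but not at every step in each library. The cells were grouped here by the counts that chose the members. In flfl_CD4Cre the 17 GTPase genes summed to 826, 1363, 1924, 2828, 2386 and 4473 CPM in C1q macrophages with 0, 1 to 4, 5 to 9, 10 to 19, 20 to 49 and 50 or more UMIs of the pair. In WT the sums were 371, 583, 940.4, 872 and 2012 CPM from 0 to 20 to 49 UMIs, with 2 cells above that. In flWT_CD4Cre they were 744, 1063, 826 and 1686 CPM at 1 to 4, 5 to 9, 10 to 19 and 20 to 49 UMIs. The flfl and CD4Cre sums rose at each step. The 39 members with exactly 5 UMIs stood at 1218 CPM and the 42 cells with exactly 4 at 967 CPM over all libraries pooled. By library the cells with 5 stood at 1681, 1078, 671, 549.6 and 1080.2 CPM in flfl_CD4Cre, flWT_CD4Cre, flfl, WT and CD4Cre, against 1409, 709, 518, 708 and 1348 CPM for those with 4, so they were higher in 3 libraries and lower in WT and CD4Cre, on 4 to 14 cells each. Cells with 20 to 49 UMIs of the pair were also deeper in all 5 libraries, with a median of 18677, 18580, 12855, 13776 and 14979 UMIs in all, against 14952, 15710, 11182, 10755 and 12229 at 0. With cells thinned to 4000 UMIs 195 genes were higher and 95 lower, among them Gbp2 (log2 2.01, adjusted p = 3.58e-12).

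**Figure D3:**
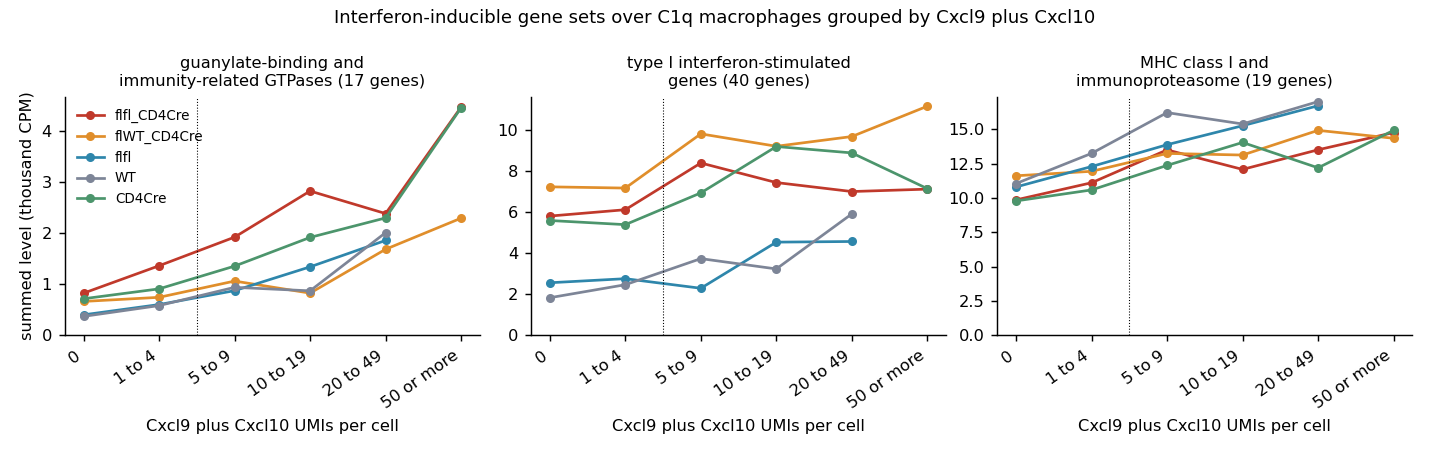
Summed level in units of 1000 CPM of the GTPase, type I interferon-stimulated and MHC class I genes over C1q macrophages grouped by their Cxcl9 plus Cxcl10 UMIs, 1 line for each library; groups under 10 cells are left out and the dotted line marks the cutoff of 5 UMIs. The GTPase sum in flfl_CD4Cre is 826 CPM at 0 UMIs and 4473 CPM at 50 or more, and the flfl and WT lines lie lowest for the type I genes.

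Of the 16 genes of the interferon gamma receptor, JAK-STAT and IRF list, all tested, 7 rose and 1 fell, with a median of 0.24 log2. Irf1, a factor induced by interferon gamma, stood at 329.7, 146, 121, 91.7 and 247 CPM in members, against 133, 79.4, 63.2, 42.8 and 125 CPM in cells under the cutoff (log2 1.09, SE 0.08, adjusted p = 1.16e-06). It was higher in 5 of 5 libraries, and the flfl and WT members lay below the flfl_CD4Cre cells under the cutoff. Batf2, an interferon-induced partner of IRF1, averaged 58.0 ± 35.2 CPM in members and 13.7 ± 7.65 CPM in cells under the cutoff (log2 2.16, SE 0.13, adjusted p = 1.85e-07), with no overlap of the classes for Batf2. Stat2 rose by 0.62 log2 (adjusted p = 8.32e-04), Irf8 and Jak2 also rose, and Socs1, the feedback inhibitor of JAK kinases, rose by 2.01 log2 (SE 0.27, adjusted p = 0.0157), a call that was lost without flWT_CD4Cre (adjusted p = 0.085). The receptor chain gene Ifngr1 was the gene that fell. Of 40 type I interferon-stimulated genes tested 19 rose and none fell, with a median of 0.69 log2. They included Ifi205 (log2 1.60, SE 0.12, adjusted p = 1.83e-06), of the DNA-binding PYHIN family, Phf11b (log2 0.92, SE 0.08, adjusted p = 2.54e-06), Ifi204 (log2 0.62, SE 0.08, adjusted p = 1.16e-04) and Ifi209 (log2 0.79, SE 0.10, adjusted p = 2.51e-04).

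Antigen presentation genes were higher as well. Of 19 MHC class I and immunoproteasome genes tested 18 rose, with a median of 0.60 log2. Psmb9, a catalytic subunit of the immunoproteasome, stood at 301, 268, 327, 234 and 243 CPM in members, against 189, 192, 174, 157 and 152 CPM in cells under the cutoff (log2 0.69, SE 0.07, adjusted p = 1.44e-05), and the classes did not overlap. The proteasome activator Psme2 averaged 418 ± 73.2 CPM in members and 275 ± 38.8 CPM in cells under the cutoff (log2 0.64, SE 0.06, adjusted p = 2.16e-05). The class I heavy chain H2-K1 averaged 2071 ± 670.2 CPM in members and 1581 ± 546 CPM in cells under the cutoff (log2 0.43, SE 0.04, adjusted p = 1.77e-05). The light chain B2m averaged 5908 ± 1787 CPM in members and 4566 ± 1077 CPM in cells under the cutoff (log2 0.39, SE 0.04, adjusted p = 2.16e-05). Of 8 MHC class II genes tested 3 rose, with a median of 0.42 log2. H2-DMa and H2-DMb1, which together edit the peptides on class II, rose by 0.42 log2 (adjusted p = 4.53e-04) and 0.43 log2 (adjusted p = 0.00168). H2-Ab1, a class II beta chain, rose by 0.47 log2 (adjusted p = 0.0314), which was lost without flfl_CD4Cre (adjusted p = 0.0837) or flWT_CD4Cre (adjusted p = 0.206). The alpha chain H2-Aa had a log2 change of 0.40 and missed the threshold (adjusted p = 0.0557). Class II levels were 91456 and 104041 CPM in members of flfl and WT, against 25118 to 28715 CPM in members of the other libraries.

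Of 14 genes for surface partners of T cells tested, 3 rose and 1 fell. Cd40, which receives help from CD4 T cells, stood at 90.0, 73.3, 60.1, 42.9 and 91.2 CPM in members, against 41.5, 41.7, 35.8, 22.9 and 26.2 CPM in cells under the cutoff (log2 1.13, SE 0.13, adjusted p = 2.22e-04), with no overlap. Cd86, a ligand of CD28, averaged 138 ± 22.8 CPM in members and 91.5 ± 28.2 CPM in cells under the cutoff (log2 0.70, SE 0.11, adjusted p = 0.0034). Cd274, the PD-L1 gene that the floxed mice target in T cells, stood at 222, 249.8, 34.7, 60.3 and 294 CPM in members, against 125, 165, 46.9, 30.2 and 178 CPM in cells under the cutoff. It was higher in members of 4 libraries and lower in those of flfl (log2 0.68, SE 0.15, adjusted p = 0.0413), and the call was lost without flfl_CD4Cre (adjusted p = 0.132), flWT_CD4Cre (adjusted p = 0.166), WT (adjusted p = 0.0974) or CD4Cre (adjusted p = 0.166). Vsir, the gene of the checkpoint protein VISTA, fell to 192 ± 30.5 CPM in members, against 264 ± 29.3 CPM in cells under the cutoff (log2 -0.43, SE 0.08, adjusted p = 0.00244).

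Of 14 cytokine and effector genes tested 5 rose and none fell. Il27, a cytokine of the IL-12 family, averaged 16.1 ± 4.19 CPM in members and 4.30 ± 1.21 CPM in cells under the cutoff (log2 1.86, SE 0.19, adjusted p = 2.39e-05). Il18bp, which neutralises IL-18 and is induced by interferon gamma, averaged 122 ± 37.3 CPM in members and 58.4 ± 12.3 CPM in cells under the cutoff (log2 1.09, SE 0.09, adjusted p = 1.89e-06). Neither gene overlapped between the classes. Acod1, which makes itaconate, averaged 115 ± 99.2 CPM in members and 23.9 ± 18.2 CPM in cells under the cutoff (log2 2.24, SE 0.20, adjusted p = 7.70e-04), but within flfl and WT alone it did not pass (adjusted p = 0.601). Il15ra had a log2 change of 0.93 (adjusted p = 0.0133) and was higher in 3 of 5 libraries, with calls lost without flfl_CD4Cre (adjusted p = 0.0585), flWT_CD4Cre (adjusted p = 0.0786) or CD4Cre (adjusted p = 0.0816). Of the 17 other chemokine genes tested Ccl5 and Cxcl16 rose and 4 fell. Ccl6 averaged 1608 ± 680.2 CPM in members and 2744 ± 1433 CPM in cells under the cutoff (log2 -0.68, SE 0.06, adjusted p = 5.54e-06). Ccl9 averaged 392.02 ± 133 CPM in members and 709.6 ± 337 CPM in cells under the cutoff (log2 -0.75, SE 0.11, adjusted p = 0.00744). The neutrophil attractant Cxcl3 averaged 38.3 ± 43.5 CPM in members and 130.5 ± 132 CPM in cells under the cutoff (log2 -1.71, SE 0.23, adjusted p = 0.00905), and the platelet gene Ppbp had 1.65 CPM in members against 21.6 CPM in cells under the cutoff. After thinning Ccl9 (adjusted p = 0.195) and Cxcl3 (adjusted p = 0.574) no longer passed. None of 7 chemokine receptor genes tested passed by edgeR or DESeq2, and 1 had an unadjusted p under 0.05. Cxcl11, the other ligand of CXCR3, was not analysed here.

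Several genes of alternative activation and of lipid-associated macrophages fell in members. Of 11 alternative activation genes tested 4 fell and 1, Pdgfb, rose, with a median of -0.61 log2. The call of Pdgfb was lost without flfl_CD4Cre (adjusted p = 0.128). Mrc1, the mannose receptor, stood at 355, 347, 123, 82.4 and 362 CPM in members, against 767, 546, 146, 135 and 605 CPM in cells under the cutoff (log2 -0.69, SE 0.09, adjusted p = 8.22e-04), lower in 5 of 5 libraries with levels in flfl and WT well below the rest. Within flfl and WT alone Mrc1 did not pass (adjusted p = 0.17), and after thinning Stab1 did not (adjusted p = 0.162). Stab1, a scavenger receptor, averaged 181 ± 91.6 CPM in members and 254 ± 126 CPM in cells under the cutoff (log2 -0.46, SE 0.08, adjusted p = 0.00224). The folate receptor Folr2 averaged 22.05 ± 14.4 CPM in members and 53.7 ± 33.7 CPM in cells under the cutoff (log2 -1.28, SE 0.20, adjusted p = 0.00709). Retnla, a gene induced by IL-4, had 17.997, 78.8, 0, 0 and 1.24 CPM in members and 255, 719, 16.4, 1.36 and 214 CPM in cells under the cutoff (log2 -3.74, SE 0.44, adjusted p = 0.019), and its call was lost without flfl_CD4Cre (adjusted p = 0.113), flfl (adjusted p = 0.0584) or WT (adjusted p = 0.0542). Of 14 lipid-associated genes tested 5 fell and none rose, with a median of -0.31 log2. Ctsd, a lysosomal protease, averaged 1384 ± 441 CPM in members and 2008 ± 704 CPM in cells under the cutoff (log2 -0.49, SE 0.05, adjusted p = 1.44e-05). Apoe, the lipid carrier, averaged 23923 ± 17864 CPM in members and 29298 ± 22179 CPM in cells under the cutoff (log2 -0.25, SE 0.05, adjusted p = 0.00665), a call lost without flWT_CD4Cre (adjusted p = 0.0836). Plin2, which coats lipid droplets, averaged 238 ± 81.0 CPM in members and 311 ± 126 CPM in cells under the cutoff (log2 -0.33, SE 0.07, adjusted p = 0.00868), lost without CD4Cre (adjusted p = 0.0707).

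Among the genes lower in members by size, F13a1, the coagulation factor XIII subunit of monocytes and macrophages, averaged 154 ± 137 CPM in members and 378 ± 324 CPM in cells under the cutoff (log2 -1.27, SE 0.08, adjusted p = 3.13e-07), lower in 5 of 5 libraries. Gas6, a bridge between dying cells and phagocyte receptors, averaged 20.9 ± 11.1 CPM in members and 52.4 ± 26.5 CPM in cells under the cutoff (log2 -1.32, SE 0.17, adjusted p = 7.70e-04). Ifitm6 averaged 23.5 ± 10.3 CPM in members and 54.3 ± 30.8 CPM in cells under the cutoff (log2 -1.22, SE 0.12, adjusted p = 1.26e-05). Eps8 averaged 49.9 ± 28.6 CPM in members and 91.7 ± 56.3 CPM in cells under the cutoff (log2 -0.83, SE 0.09, adjusted p = 3.83e-05). Among the genes higher by size, Serpina3g averaged 142 ± 63.8 CPM in members and 20.7 ± 16.9 CPM in cells under the cutoff (log2 3.01, SE 0.30, adjusted p = 0.00706). Fam26f averaged 103 ± 29.8 CPM in members and 28.1 ± 13.7 CPM in cells under the cutoff (log2 2.03, SE 0.20, adjusted p = 0.00161). Ifit1 averaged 118 ± 78.2 CPM in members and 23.2 ± 18.1 CPM in cells under the cutoff (log2 2.40, SE 0.24, adjusted p = 0.00375). The call of Serpina3g was lost without flWT_CD4Cre (adjusted p = 0.0502), while those of Fam26f and Ifit1 stood in each refit without 1 library. Ly6i, a marker of these cells from a family of membrane-anchored proteins, stood at 215, 156, 13.3, 3.48 and 198 CPM in members, against 54.5, 59.1, 10.4, 2.22 and 56.1 CPM in cells under the cutoff (log2 1.68, SE 0.16, adjusted p = 2.49e-04). It was near 0 in WT in both classes, and within flfl and WT alone it did not pass (adjusted p = 0.835). Ly6a of the same family had a log2 change of 1.17 and missed the threshold (adjusted p = 0.0646), although it passed without flWT_CD4Cre (adjusted p = 0.0265) or WT (adjusted p = 0.0437).

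**Figure D4:**
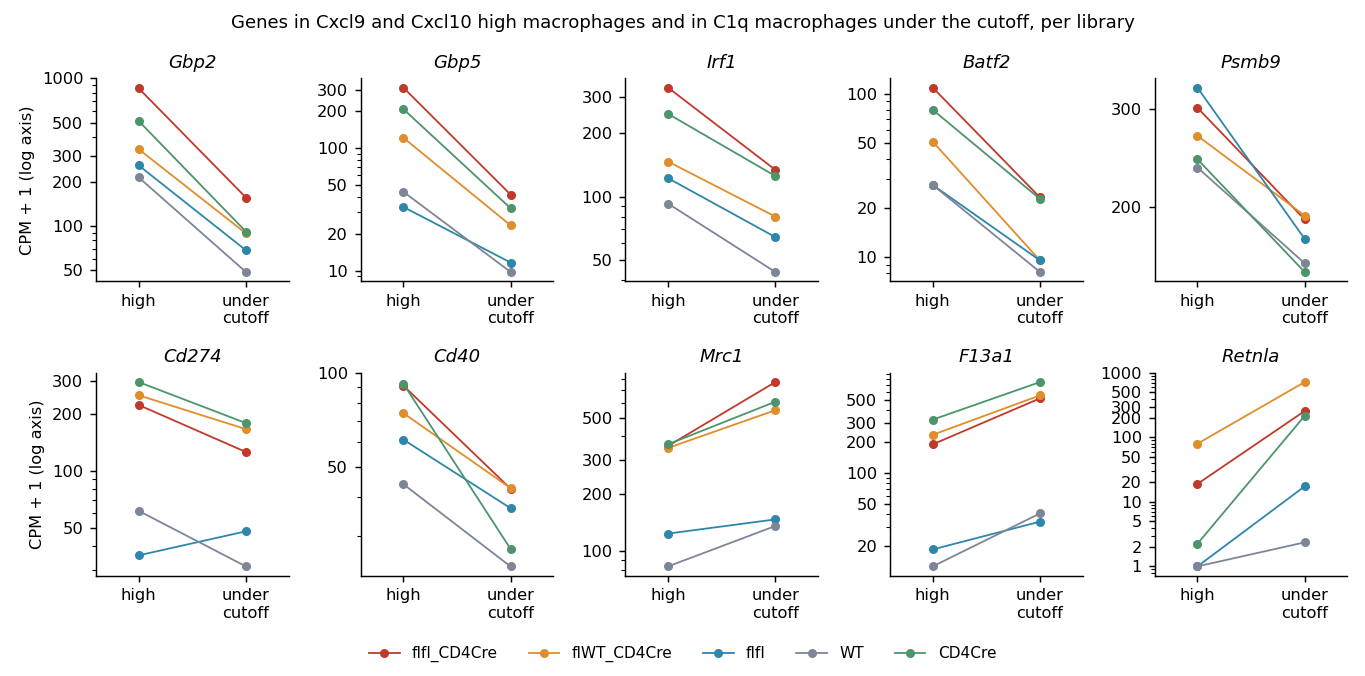
Level of 10 genes as CPM + 1 on a log axis in members (left) and in C1q macrophages under the cutoff (right), with 1 line for each library. Gbp2, Batf2 and Cd40 are higher in members in 5 of 5 libraries, Mrc1, F13a1 and Retnla are lower in 5 of 5, and Cd274 is lower in members of flfl and higher in those of the other 4.

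Calls in the Fc gamma receptor and complement lists went both ways, with each fall resting on 1 gene. Of 5 Fc gamma receptor genes tested Fcgr4, Fcer1g and Fcgr1 rose and Fcgr2b fell. Fcgr4, an activating receptor for IgG2, stood at 466, 353, 718, 847 and 644 CPM in members, against 303, 238, 446, 505 and 333 CPM in cells under the cutoff (log2 0.75, SE 0.06, adjusted p = 1.96e-06), higher in 5 of 5 libraries. The inhibitory receptor Fcgr2b had 766 ± 191 CPM in members and 896 ± 155 CPM in cells under the cutoff (log2 -0.21, SE 0.06, adjusted p = 0.0399), and this call was lost when any 1 of the 5 libraries was left out (adjusted p = 0.0545 to 0.172). Of 7 complement genes outside C1q tested, Cfb, factor B of the alternative pathway, rose (log2 1.25, SE 0.13, adjusted p = 1.40e-04) and the C5a receptor C5ar1 fell (log2 -0.35, SE 0.07, adjusted p = 0.00466). Of 12 macrophage identity genes tested Ctss (log2 0.31, SE 0.04, adjusted p = 1.67e-04), Aif1 (log2 0.42, SE 0.05, adjusted p = 1.72e-04) and Fcgr1 (log2 0.31, SE 0.06, adjusted p = 0.0075) rose and Itgam fell (log2 -0.33, SE 0.09, adjusted p = 0.0476), the last lost without flWT_CD4Cre (adjusted p = 0.176), flfl (adjusted p = 0.122) or CD4Cre (adjusted p = 0.245). After thinning Ctss did not pass (adjusted p = 0.0818). Of 10 monocyte genes tested Clec4e rose and Vcan fell, and the call of Clec4e was lost without flWT_CD4Cre (adjusted p = 0.116) or flfl (adjusted p = 0.0708) or WT (adjusted p = 0.0663) and that of Vcan was lost without CD4Cre (adjusted p = 0.0557). Of 15 hypoxia and glycolysis genes Pfkp rose and Egln3 fell, and the call of Egln3 was lost without flfl_CD4Cre (adjusted p = 0.0697) or CD4Cre (adjusted p = 0.087). Over all genes tested 3.5% were higher and 1.84% lower, so nothing is read from 1 call each way in the monocyte or hypoxia lists. None of 10 dissociation stress or 10 cell cycle genes passed by edgeR or DESeq2, with 2 and 1 at an unadjusted p under 0.05. Of 4 dendritic cell markers tested Clec9a rose (9.22 CPM in members against 2.79 CPM under the cutoff, adjusted p = 8.36e-04) and Cd209a fell (0.806 CPM in members against 10.99 CPM under the cutoff, adjusted p = 3.67e-05), and of 6 neutrophil markers Mmp8 fell (13.6 CPM in members against 55.2 CPM under the cutoff, adjusted p = 0.00349). The part of such cells in the other changes was not tested. No T cell, B cell or epithelial and fibroblast marker among the 10 tested passed by edgeR or DESeq2, and 1, an epithelial or fibroblast marker, had an unadjusted p under 0.05.

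Resident-like macrophages gave a different contrast. Marco, Lyve1 and Fcna split the classes. Members also needed at least 5 UMIs of Cxcl9 plus Cxcl10, while resident-like cells had no limit on the pair. The 15 genes of the rule were left out, and 4 libraries entered because CD4Cre held 3 resident-like cells. Of 7361 genes tested 409 were higher in members and 401 were lower (5.56% and 5.45%), and the classes did not overlap for 550 (7.47%). The counts were 148 and 184 without flfl_CD4Cre, which held 243 of the 322 resident-like cells, and 282 and 253 without flWT_CD4Cre. Removing cells with a shared barcode left 90 of the 243 resident-like cells of flfl_CD4Cre and 44 of the 48 of flWT_CD4Cre. It gave 374 genes higher and 400 lower. Cxcl13, a B cell attractant, had 0.207, 0, 0 and 0 CPM in members of flfl_CD4Cre, flWT_CD4Cre, flfl and WT, against 113, 101, 1063 and 229 CPM in resident-like cells (edgeR adjusted p = 5.77e-07). Cd5l, a secreted protein of tissue macrophages, had 0.128 CPM in members and 141 CPM in resident-like cells (log2 -8.54, SE 0.39, adjusted p = 1.41e-06), and the haemoglobin scavenger Cd163 0.232 CPM in members and 79.5 CPM in resident-like cells (log2 -7.74, SE 0.36, adjusted p = 1.41e-06). Ednrb had a log2 change of -5.56 (SE 0.27), and Lrg1 of -5.57 (adjusted p = 0.0565 without flfl_CD4Cre). Higher in members were the lectin receptor Klrb1b (60.8 ± 32.0 CPM in members against 1.28 ± 1.93 CPM in resident-like cells, SD, n = 4 libraries each, log2 5.44, SE 0.39, adjusted p = 2.82e-05), Ifitm1 (357 ± 202 CPM in members against 19.5 ± 3.88 CPM in resident-like cells, log2 4.46, SE 0.33, adjusted p = 3.72e-05) and the nuclease Dnase1l3 (126 ± 49.9 CPM in members against 6.16 ± 1.80 CPM in resident-like cells, log2 4.19, SE 0.23, adjusted p = 4.61e-06). Asb2 and Adamdec1 were also higher, the second with adjusted p = 0.092 without flfl_CD4Cre. Of 15 GTPase genes tested 6 rose, and of 38 type I interferon-stimulated genes 20 rose and 2, Ifitm3 and Siglec1, fell. The part of the choice of members by Cxcl9 plus Cxcl10 in these rises was not tested. Nos2, Tnf, Ptgs2, Il1rn, Il1a and Il18bp were the 6 of 12 cytokine and effector genes that rose, and none fell, although the list of 18 summed to 2041, 1892, 2150.3 and 1265 CPM in members of flfl_CD4Cre, flWT_CD4Cre, flfl and WT, against 5880.1, 7109, 31725 and 7079 CPM in resident-like cells. Saa3 made up most of that sum, with 128 CPM in members and 12422 CPM in resident-like cells on average, and missed the threshold (adjusted p = 0.0595). Of 10 dissociation stress genes tested Hspa1b and Atf3 rose and Dusp1, Ier2, Egr1, Fosb and Fos fell, with a median of -0.47 log2, and the part of handling in the other changes was not tested. Leaving out flfl_CD4Cre ended the calls of Hspa1b (adjusted p = 0.0723), Atf3 (adjusted p = 0.278), Fosb (adjusted p = 0.122), Fos (adjusted p = 0.0787), Tnf (adjusted p = 0.171), Ptgs2 (adjusted p = 0.0964), Il1a (adjusted p = 0.219), Il18bp (adjusted p = 0.0919) and Siglec1 (adjusted p = 0.468) and brought Saa3 past the threshold (adjusted p = 0.0242). Leaving out flWT_CD4Cre ended those of Atf3 (adjusted p = 0.0899), Fosb (adjusted p = 0.147), Fos (adjusted p = 0.0915), Tnf (adjusted p = 0.0633), Ptgs2 (adjusted p = 0.0896), Ifitm3 (adjusted p = 0.084) and Siglec1 (adjusted p = 0.112). Without flfl the calls of Egr1 (adjusted p = 0.0649), Fos (adjusted p = 0.0734), Tnf (adjusted p = 0.0534), Il18bp (adjusted p = 0.0966) and Ifitm3 (adjusted p = 0.185) were lost, and without WT those of Fos (adjusted p = 0.0669), Il18bp (adjusted p = 0.0645), Ifitm3 (adjusted p = 0.102) and Siglec1 (adjusted p = 0.0507). The calls of Il1rn, Dusp1 and Ier2 stood without any 1 of the 4 libraries, and that of Nos2 stood without flfl or WT and was under the filter in the other refits.

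Genes most like the pair were sought over the members alone, by the rank correlation of each gene's share of UMIs with that of Cxcl9 plus Cxcl10 in each library, averaged over the 5 libraries. This is a description over cells that share library, depth and free RNA. Of 6517 genes detected in at least 20% of members the median was -0.04. Gbp2 was highest at 0.37, with 0.42, 0.32, 0.39, 0.39 and 0.33 in flfl_CD4Cre, flWT_CD4Cre, flfl, WT and CD4Cre. Fam26f (0.34), Gbp5 (0.32), Serpina3g (0.31), Igtp (0.29), Cd40 (0.28), Iigp1 (0.27), Psme2 (0.26) and Ifi47 (0.26) followed, with AW112010 (0.33) among them.

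Members led by Cxcl9 and members led by Cxcl10 differed in MHC class II and type I interferon-stimulated genes, which ran opposite ways. This comparison was added after the counts of the 2 genes had been seen, and the split rests on those counts. Cxcl10 itself answers to type I interferons, so the split is not independent of the type I genes. Both chemokines follow interferon gamma, so independence from the class II and GTPase genes cannot be assumed either. The adjusted p-values allow for neither point. It used the same fit, with 187, 102, 39, 52 and 76 cells led by Cxcl9 and 67, 62, 18, 14 and 34 led by Cxcl10 in flfl_CD4Cre, flWT_CD4Cre, flfl, WT and CD4Cre. Their median depth was 18076, 19997, 11824, 12267 and 14234 UMIs for cells led by Cxcl9 and 16673, 17348, 14538, 14316 and 12935 for cells led by Cxcl10. Of 7181 genes tested 150 were higher in cells led by Cxcl9 and 217 were lower (2.09% and 3.02%), and DESeq2 gave 91 and 188. Without flWT_CD4Cre the counts were 49 and 59, without CD4Cre 56 and 99, and without flfl_CD4Cre 90 and 121. This comparison was not rerun on thinned cells, without doublets or without cells that share a barcode.

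MHC class II went with Cxcl9. Of 8 class II genes tested 7 were higher in cells led by Cxcl9, with a median of 0.84 log2 against 0.01 over all genes tested. H2-Ab1 stood at 6029, 6009.8, 18488, 20322 and 5246 CPM in cells led by Cxcl9, against 3452, 2842, 11570.5, 11481 and 2863 CPM in cells led by Cxcl10 (log2 0.87, SE 0.05, adjusted p = 1.17e-08), higher in 5 of 5 libraries. H2-Eb1 (log2 0.95, SE 0.06, adjusted p = 1.17e-08), H2-Aa (log2 0.81, SE 0.06, adjusted p = 1.23e-07) and the invariant chain Cd74 (log2 0.76, SE 0.05, adjusted p = 3.29e-07) were higher, as was Ciita, the regulator that switches class II genes on, with 167 ± 111 CPM in cells led by Cxcl9 and 71.4 ± 56.2 CPM in cells led by Cxcl10 (log2 1.27, SE 0.17, adjusted p = 2.23e-04). Also higher were Gbp2b with 54.3 ± 23.4 CPM in cells led by Cxcl9 and 8.13 ± 5.58 CPM in cells led by Cxcl10 (log2 2.76, SE 0.26, adjusted p = 5.61e-06), Gbp2 (log2 0.81, SE 0.15, adjusted p = 0.00675), Ly6i (log2 1.18, SE 0.15, adjusted p = 1.02e-04), the class Ib gene H2-M2 (log2 2.17, SE 0.22, adjusted p = 1.47e-05), Klrb1b (log2 1.73, SE 0.22, adjusted p = 1.06e-04) and Tlr12 (log2 1.43, SE 0.21, adjusted p = 5.40e-04).

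Type I interferon-stimulated genes went with Cxcl10. Of 40 tested 32 were lower in cells led by Cxcl9 and none was higher, with a median of -1.14 log2. Cmpk2, an interferon-induced nucleotide kinase, stood at 16.4, 20.8, 6.48, 6.10 and 7.07 CPM in cells led by Cxcl9, against 120.5, 272, 6.99, 136 and 124 CPM in cells led by Cxcl10 (log2 -3.46, SE 0.24, adjusted p = 1.72e-06). It was lower in 5 of 5 libraries, with a small gap in flfl. Ifit3, an antiviral gene of the IFIT family, averaged 54.9 ± 25.4 CPM in cells led by Cxcl9 and 313 ± 202 CPM in cells led by Cxcl10 (log2 -2.53, SE 0.21, adjusted p = 5.60e-05). The antiviral GTPase Mx1 averaged 22.6 ± 18.6 CPM in cells led by Cxcl9 and 112 ± 78.9 CPM in cells led by Cxcl10 (log2 -2.34, SE 0.18, adjusted p = 3.22e-07). Usp18, which removes ISG15, averaged 34.8 ± 11.5 CPM in cells led by Cxcl9 and 134 ± 57.6 CPM in cells led by Cxcl10 (log2 -2.01, SE 0.22, adjusted p = 2.56e-04). Ifit1 had a log2 change of -2.57 (adjusted p = 0.0152), which was lost without flWT_CD4Cre (adjusted p = 0.0784) or WT (adjusted p = 0.054). Of 15 GTPase genes tested Gbp2b and Gbp2 were higher and Irgm1, Irgm2 and Igtp were lower in cells led by Cxcl9. Irgm1 lost its call without flfl_CD4Cre (adjusted p = 0.0588), flWT_CD4Cre (adjusted p = 0.0686) or CD4Cre (adjusted p = 0.0675), and so did Irgm2 (adjusted p = 0.14, adjusted p = 0.0553 and adjusted p = 0.0575).

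The other chemokines divided too. Of 14 tested 2 were higher and 3 lower in cells led by Cxcl9. Cxcl3 averaged 13.2 ± 9.81 CPM in cells led by Cxcl9 and 98.3 ± 127 CPM in cells led by Cxcl10 (log2 -2.79, SE 0.21, adjusted p = 3.22e-07). The monocyte attractant Ccl12 averaged 511 ± 456 CPM in cells led by Cxcl9 and 1001 ± 637 CPM in cells led by Cxcl10 (log2 -1.04, SE 0.12, adjusted p = 2.08e-04). Cxcl3 and Ccl12 were both lower in 5 of 5 libraries. Ccl2, another monocyte attractant, averaged 264 ± 234 CPM in cells led by Cxcl9 and 611 ± 413 CPM in cells led by Cxcl10 (log2 -1.39, SE 0.26, adjusted p = 0.0356), and its call was lost without flfl_CD4Cre (adjusted p = 0.052), flWT_CD4Cre (adjusted p = 0.0809), flfl (adjusted p = 0.177) or WT (adjusted p = 0.127). Ccl8 was higher in cells led by Cxcl9 (log2 1.44, SE 0.25, adjusted p = 0.0419), a call lost without flfl_CD4Cre (adjusted p = 0.11), flWT_CD4Cre (adjusted p = 0.104) or WT (adjusted p = 0.112), and so was Cxcl16 (log2 0.46, SE 0.10, adjusted p = 0.0123), lost without flWT_CD4Cre (adjusted p = 0.0675) or CD4Cre (adjusted p = 0.0853). Of 15 hypoxia and glycolysis genes tested Bnip3 and Ldha were lower in cells led by Cxcl9 and none was higher, with both calls lost without flWT_CD4Cre (adjusted p = 0.0758 and adjusted p = 0.147). Of 9 monocyte genes tested Vcan (log2 -2.001), Thbs1 (-1.19) and Clec4e (-0.76) were lower in cells led by Cxcl9, none was higher, and the median was -0.92. Of 2 B and plasma cell markers tested Ighm was higher in cells led by Cxcl9 (log2 0.81, adjusted p = 0.0096), and of 4 neutrophil markers none passed by edgeR or DESeq2 and none had an unadjusted edgeR p under 0.05. The 4 neutrophil markers still had a median of -1.46 log2, with 1 of them above 0. The call of Thbs1 was lost without flfl_CD4Cre (adjusted p = 0.0536) or flfl (adjusted p = 0.054) or CD4Cre (adjusted p = 0.0906), that of Clec4e was lost without flWT_CD4Cre (adjusted p = 0.194) or flfl (adjusted p = 0.0513) or CD4Cre (adjusted p = 0.133) and that of Ighm was lost without flfl (adjusted p = 0.0935). Vcan was under the filter without flfl_CD4Cre or flWT_CD4Cre and passed without each of the others. The part of monocyte, B cell or neutrophil RNA in the class II and type I differences was not tested.

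**Figure D5:**
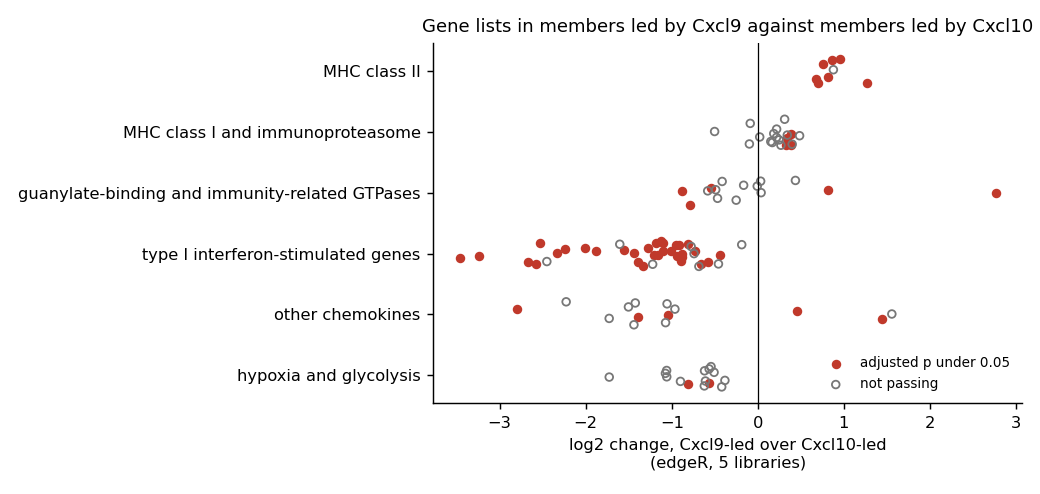
log2 change of single genes in members led by Cxcl9 over members led by Cxcl10, by gene list; filled points have an edgeR adjusted p under 0.05. MHC class II genes lie right of 0 (7 of 8 filled) and type I interferon-stimulated genes left of 0 (32 of 40 filled).

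The promoter letters were counted over all genes with a RefSeq promoter, to set the printed sequences in context. In the 250 bases before the start, GAS letters occurred in 8.13% and ISRE letters in 3.46% of 27025 promoters. Of the genes higher in members than in cells under the cutoff 275 matched a promoter, and 15.3% of them held ISRE letters and 11.3% GAS letters, while of the 136 matched lower genes 2.94% and 10.3% did. ISRE letters stood before 6.96% of 115 matched genes higher in cells led by Cxcl9 and 18.9% of 169 matched genes higher in cells led by Cxcl10. The runs of Cxcl10, Gbp2, Gbp5 and Ifit3 shown earlier hold such letters and that of Cxcl9 does not. These are matches of letters in a fixed window and not binding sites.

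Between genotypes, flfl_CD4Cre and CD4Cre were compared, which lie in one library set with flWT_CD4Cre and differ in both floxed alleles. No test is possible, so genes were called by size: at least 50 CPM in the higher library, a log2 ratio of at least 1, separate exact 95% Poisson intervals, and an flfl_CD4Cre value beyond those of all 4 other libraries. Here CPM leaves out the 15 genes of the rule. Of 3369 genes at 50 CPM, 19 were higher in flfl_CD4Cre members and 10 were lower (0.564% and 0.297%), and 23 and 12 without cells that share a barcode. At 50 CPM the lists held 12 GTPase, 19 MHC class I, 7 MHC class II, 30 type I interferon-stimulated and 16 JAK-STAT genes, and none was called. At the shares called over all genes, lists of this size would hold few calls or none, so nothing is read from this. Their median log2 ratios were 0.50, 0.13, 0.23, -0.18 and 0.08 in that order, against -0.01 over all genes. Cd274 stood at 222, 249.8, 34.7, 60.3 and 294 CPM over all UMIs in members of flfl_CD4Cre, flWT_CD4Cre, flfl, WT and CD4Cre, so it was present in macrophages of the mice with floxed alleles and Cre.

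The largest ratio belonged to Hal, a histidine-degrading enzyme, with 118, 1.56, 0, 0 and 1.26 CPM in members of flfl_CD4Cre, flWT_CD4Cre, flfl, WT and CD4Cre. It was found in 119 of 259 flfl_CD4Cre members and in 2 of 111 CD4Cre members, and it was no feature of members alone: cells under the cutoff stood at 151, 0.212, 0, 0.126 and 0.563 CPM. Vcan, a matrix proteoglycan of monocytes, stood at 79.3, 29.3, 0, 3.58 and 18.3 CPM in members, against 126, 47.6, 7.51, 3.79 and 50.1 CPM in cells under the cutoff, again highest in flfl_CD4Cre in both. Timp1, a protease inhibitor, stood at 53.3, 9.65, 8.20, 5.96 and 13.2 CPM in members, and Cnn3, an actin-binding protein, at 73.0, 31.4, 12.3, 4.77 and 27.1 CPM, with flfl_CD4Cre highest for both. Under the cutoff they stood at 18.96 and 14.8 CPM in flfl_CD4Cre and 14.9 and 11.3 CPM in CD4Cre. Klf4 and Klf2, transcription factors, had log2 ratios of 1.44 and 1.28, Tnip3 of 1.32 and the acute phase gene Saa3 of 1.36. In cells under the cutoff flfl_CD4Cre was above CD4Cre for each of these genes but was not the highest. There flWT_CD4Cre exceeded flfl_CD4Cre for Klf4 (154 against 118 CPM), Klf2 (263 against 196 CPM), Tnip3 (24.1 against 19.4 CPM) and Saa3 (331 against 221 CPM). Without cells that share a barcode the ratios of Tnip3 and Saa3 were 0.79 and 0.16, under the size rule. After thinning Vcan (0.88), Cnn3 (0.84), Tnip3 (0.02) and Saa3 (0.03) fell under it as well. Of 9 monocyte genes at 50 CPM Vcan, Ccr2 and Clec4e were called higher.

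Lower in flfl_CD4Cre members were S100a8 and S100a9, which neutrophils carry in large amounts, with 18.9, 148, 623, 773 and 107 CPM and 6.50, 117, 448, 559 and 55.4 CPM in the same library order, so flfl_CD4Cre was lowest for both and flfl and WT were highest. In cells under the cutoff flfl_CD4Cre was not the lowest: S100a8 stood at 48.99, 37.7, 649, 733 and 30.1 CPM, S100a9 at 42.3, 26.7, 457, 536 and 10.1 CPM and Mmp9 at 114, 115, 69.9, 82.6 and 59.7 CPM, each higher in flfl_CD4Cre than in CD4Cre. In CD4Cre members 1 cell held 77.1% of the S100a8 UMIs and 1 cell 75% of those of S100a9. Lyz1 and Mmp9 also rest on single cells, since 95.7% and 89.8% of their UMIs in CD4Cre members lay in 1 cell, and after thinning their log2 ratios were 2.66 and 0.55 against -5.76 and -4.02. Ccl8, a monocyte attractant, stood at 270.0, 833, 1728, 1477 and 731 CPM and Rgs1, which damps chemokine receptor signals, at 85.0, 598, 628, 199 and 216 CPM, lowest in flfl_CD4Cre for both. Rgs1 was also lowest there in cells under the cutoff, at 93.9 CPM against 189 CPM in CD4Cre. Tlr12 and Dnase1l3 had log2 ratios of -1.28 and -1.11, which were -0.13 and -0.48 without cells that share a barcode. After thinning the ratio of Ccl8 was -0.91, and without cells that share a barcode that of Rgs1 was -0.93, both under the size rule. The 7 neutrophil markers summed to 98.1 CPM in members of flfl_CD4Cre and 336 CPM in those of CD4Cre. The part of neutrophil RNA in these differences was not tested.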

How the data were processed

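Values are UMI counts for each gene and barcode in the authors' deposited matrices, made with Cell Ranger on mm10 per the submitters' processing notes, version 3.1.0 per the file headers of 3 matrices and not given in the sources used here for flfl and WT. The 12 bulk libraries of the series were not used. Members were found on raw counts with Python 3.11.15, numpy 2.4.6, scipy 1.17.1 and scanpy 1.11.5. UMI sums by class and library were tested with edgeR 4.0.16 (R 4.3.3; TMM factors, default expression filter, robust quasi-likelihood test, library as block), and adjusted p-values are Benjamini-Hochberg values over all genes tested. The SE divides the absolute log2 change by the root of the F statistic, and n is libraries. Cells are not replicates, and both classes of a library come from the same suspension, so the library pairs them. SD is over libraries, which differ in genotype. Doublets were kept, and Scrublet's highest scores, 0.8% for each 1000 cells, were removed in an alternative, among them 16 of the 659 members. Members and the 26 gene lists were chosen with earlier results of these data known. Genes were named by rule: the markers, the 12 largest changes each way at 50 CPM or more with 1 direction in 5 of 5 libraries (5 against resident-like cells, 8 called by size), up to 4 list members by smallest p that passed, and the 10 rank correlations that were highest. Other list members, H2-Aa and Ly6a, and all genes of the comparison of Cxcl9-led with Cxcl10-led cells were chosen after their values were seen. The tests against cells under the cutoff and against resident-like cells were also tried on simulated counts with 200 changed genes. Against cells under the cutoff they recovered 64.2, 91.04 and 89.4% of changes of 1.5, 2 and 4 fold, with 18 false calls. Against resident-like cells they recovered 1.49, 41.8 and 86.4%, with 6 false calls. The comparison of Cxcl9-led with Cxcl10-led cells was not simulated. Values of 1 gene of the JAK-STAT list are not reported here. Promoters and coordinates are RefSeq's on GRCm38.p6, the assembly that mm10 names.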

Additional observations from a re-analysis of the deposited data

Results flagged for a closer look

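Among the genes named, 11 calls hide libraries that go opposite ways, each with 1 library for a genotype, so the difference between libraries was not tested. Against cells under the cutoff, Cd274 was higher in members of 4 libraries and lower in flfl, at 34.7 CPM in members against 46.9 CPM. Pdgfb was higher in 4 of 5 libraries, Il15ra in 3 of 5, and Ctsb and Mmp8, called lower, were higher in 1 of 5 each. Against resident-like cells Hspa1b, Atf3 and Tnf, called higher, were higher in 3 of 4 libraries each, and Siglec1, called lower, was higher in 1 of 4. Irgm1 and Igtp, called lower in cells led by Cxcl9, were each higher there in 1 of 5 libraries.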

How the results depend on the processing

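Against cells under the cutoff, the fit without the replicate block, which drops the pairing of the classes by library, gave 6 genes higher and 0 lower by edgeR (118 lower at an unadjusted p under 0.05), and against resident-like cells 58 and 89, so the counts rest on comparing classes inside a library. Omitting the filter gave 437 lower against cells under the cutoff, and 775 and 663 against resident-like cells. DESeq2 gave 99 lower against cells under the cutoff and 91 higher in cells led by Cxcl9. Thinning gave 195 and 95, and against resident-like cells, in 3 libraries, 177 and 153. Only flfl and WT, which hold 123 members, gave 135 and 56. Leaving out 1 library gave 219 to 355 higher and 98 to 161 lower against cells under the cutoff, 148 to 507 and 184 to 449 against resident-like cells, and 49 to 157 and 59 to 266 for Cxcl9-led against Cxcl10-led cells. Other size factors, doublet removal, a cutoff of 10 UMIs, 0 UMIs in the others and removal of shared barcodes, the last chosen after seeing the data like the library sets, kept the counts within 1.5 times wherever they were run. A cutoff of 10 UMIs gave shares of 26.5, 30.5, 7.44, 5.19 and 23.3% in flfl_CD4Cre, flWT_CD4Cre, flfl, WT and CD4Cre, and thinning 21.1, 26.9, 6.07, 3.47 and 21.6%, while doublet removal, a mitochondrial limit of 5% and removal of shared barcodes moved no share outside its interval. Setting flfl_CD4Cre members against WT gave 628 higher and 122 lower, and against flfl 606 and 128, both across the library sets. The direction turned for Il15ra within flfl and WT (log2 -0.13) and, between flfl_CD4Cre and CD4Cre after thinning, for Lyz1 (2.66) and Mmp9 (0.55). The cause of these shifts was not tested. Named genes against cells under the cutoff kept direction and call in 971 of 1169 refits, and in 186 of 225 for Cxcl9-led against Cxcl10-led cells. Against resident-like cells they did so in 217 of 274, and between flfl_CD4Cre and CD4Cre members in 72 of 96. Counting error is widest in flfl and WT, which hold 57 and 66 members.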
